A study of Mus musculus with 8 samples.

Results

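The neutrophil granule and maturation genes are 32 genes for proteases, binding proteins, receptors and oxidase subunits that a granulocyte makes as it matures. A gene was measured through its probe set with a single gene symbol. This gave 30 of the 32 genes, each with 1 probe set, among 19938 genes and 21789 probe sets in all. Fpr1 and Fpr2 were not analysed here. No filter on low values was set, so all 30 entered the tests. They fall into 4 primary granule genes, 11 secondary granule genes, 5 measured late maturation genes, the 2 calprotectin genes, 4 NADPH oxidase genes, 2 integrin genes, and lysozyme with annexin A1.

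Total RNA came from mouse cells of strain C57BL/6 in 4 groups of 2 Affymetrix arrays. The groups carried full-length NUP98-HOXA9, its deletion mutant delFG1, its deletion mutant delFG2, or an empty vector. NUP98-HOXA9 is a leukaemia fusion that joins the phenylalanine-glycine (FG) repeat region of the nucleoporin NUP98 to the homeodomain of HOXA9, and the study asked which genes its NUP98 moiety regulates. Within each group the arrays are numbered 1 and 2. The sources used here do not give the kind of cell, the residues that each deletion removes, the species of the fusion cDNA or how much fusion protein the cells made. No label states that the 2 arrays of a group are separate cultures, and a p-value here covers the spread between these samples alone, which may be technical. In RNA from whole cultures, fewer cells of a type and less RNA per cell cannot be told apart.

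Granules of the neutrophil are filled in a fixed order as the cell matures. Primary (azurophil) granules, made at the promyelocyte stage, hold myeloperoxidase and serine proteases. Secondary (specific) granules, made at the myelocyte stage, hold lactoferrin and other antimicrobial proteins, and gelatinase, chemokine receptors and many surface proteins follow in the band and segmented cell.

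Median intensity lay between 80.7 and 83.2 in the 8 arrays, and all levels below are log2(intensity + 1). Signal strengths of different probe sets are not compared with each other. Arrays with the same number deviated together from their group means in all 6 pairs of groups, with a correlation over all tested probe sets between 0.401 and 0.640. Differences were therefore tested with limma in 2 ways, with the group means alone and with the array number added as a replicate block. Adjusted p-values are Benjamini-Hochberg values over 21789 probe sets with a threshold of 0.05, and a gene is said to rise or fall only where the fit named beside it passed that threshold. The number of arrays limits the precision of every value.

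**Figure D1:**
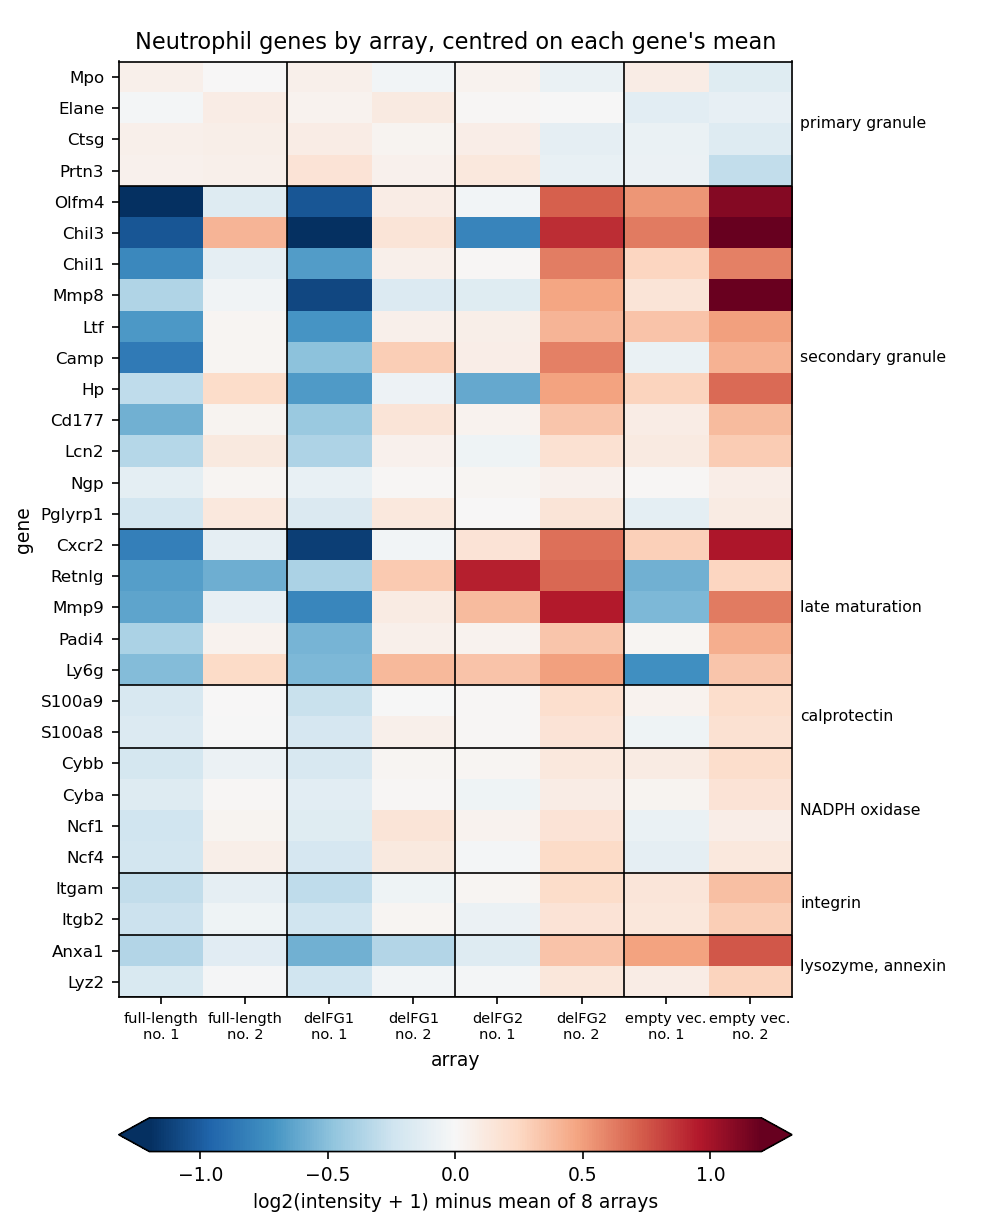
Level of the 30 measured genes in the 8 arrays. Rows are genes grouped by class and columns are arrays; colour gives log2(intensity + 1) minus the gene's mean over the 8 arrays, with differences past 1.2 drawn at the end of the scale. Most secondary granule genes are lowest in the full-length and delFG1 arrays numbered 1 and highest in empty vector array 2, while the 4 primary granule genes vary little.

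In the fit with the block, 9 of 11 secondary granule genes were lower in cells with full-length NUP98-HOXA9 than in cells with the empty vector, as were 9 genes of the other classes, while the 4 primary granule genes differed by 0.06 to 0.24 in the other direction. With the replicate block, 18 of the 30 genes fell and 1 rose, against a background of 4.43% lower and 2.18% higher among all tested probe sets. Without the block 0 of the 30 passed, where the background was 0.0229% lower and 0.101% higher. An unadjusted p under 0.05 was reached by 12 of the 30 without the block, against 9.54% of all tested probe sets, and the smallest adjusted p of a member was 0.152, for Anxa1. The median difference was -0.34 over the 30 genes and 0.02 over all tested probe sets. The 2 arrays of each group did not overlap for 16 lower and 3 higher genes (15.6% and 23.4% of all tested probe sets).

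The call in the fit with the block depended on single arrays for 12 of the 19 genes. Fewer genes were called on leaving out either full-length array. The share of all tested probe sets called in refits with 1 array left out was not computed. Olfm4, Chil1, Cxcr2, Itgam, Itgb2, Lyz2 and Anxa1 kept their call with each of the 8 arrays left out in turn. Without full-length no. 1 the call was lost by Ltf, Camp, Lcn2, Chil3, Cd177, Hp, Padi4, S100a9, Cybb and Cyba, with adjusted p between 0.0701 (Cybb) and 0.274 (Cyba) by limma. Without full-length no. 2 it was lost by Prtn3, Mmp8, Chil3, Hp, Padi4, S100a9, Cybb and Cyba, with adjusted p between 0.0548 (Mmp8) and 0.336 (Prtn3). Without empty vector no. 1 it was lost by Lcn2, Hp, Padi4 and Cyba, with adjusted p between 0.0564 (Lcn2) and 0.223 (Hp). Prtn3 also lost it without empty vector no. 2, delFG1 no. 1 or either delFG2 array (0.0511 to 0.0819), and Cyba without any 1 of the delFG1 and delFG2 arrays (0.0797 to 0.106).

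Among the primary granule genes, the level of Elane, which encodes neutrophil elastase, was 13.14 and 13.25 in full-length arrays, 13.21 and 13.27 in delFG1 arrays, 13.17 and 13.16 in delFG2 arrays, and 13.04 and 13.06 in empty vector arrays. Prtn3, the gene of proteinase 3, had 12.71 and 12.72 in full-length arrays, 12.82 and 12.70 in delFG1 arrays, 12.78 and 12.57 in delFG2 arrays, and 12.59 and 12.36 in empty vector arrays. Ctsg, the gene of cathepsin G, had 12.98 and 12.99 in full-length arrays, 13.01 and 12.95 in delFG1 arrays, 12.998 and 12.82 in delFG2 arrays, and 12.84 and 12.76 in empty vector arrays. For these 3 serine proteases both full-length arrays and both delFG1 arrays lay above both empty vector arrays. Such separation was common, at 23.4% of all tested probe sets for full-length and 24.6% for delFG1 cells, against 10% of the 30 genes in each. Mpo, which encodes myeloperoxidase, had 13.10 and 13.05 in full-length arrays, 13.10 and 13.005 in delFG1 arrays, 13.08 and 12.96 in delFG2 arrays, and 13.13 and 12.89 in empty vector arrays, and its groups overlapped.

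Full-length NUP98-HOXA9 minus empty vector, the primary granule genes differed by 0.06 (Mpo) to 0.24 (Prtn3) on the log2 scale, with a median of 0.17. Prtn3 rose 1.18-fold in the fit with the block (95% interval 0.11 to 0.37, adjusted p = 0.0341 by limma), against an adjusted p of 0.478 without it. Elane differed by 0.14 and Ctsg by 0.19 and neither passed, with adjusted p of 0.089 and 0.0518 with the block. The largest of these 4 differences was smaller in size than the fall of 0.31 in Lcn2, the smallest among the secondary granule genes that passed. All 4 primary granule genes are among the 16 members with a mean log2 level over 12. Of the secondary granule genes only Ltf, Ngp, Lcn2, Cd177 and Pglyrp1 are. Whether bright probe sets understate differences was not tested.

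All 11 secondary granule genes had a negative difference between full-length and empty vector cells, with a median of -0.58, and 9 of them fell in the fit with the block. Of all 21789 tested probe sets, 9455 had a negative difference and 4.43% fell with the block. The secondary median was -0.66 within replicate number 1 and -0.46 within replicate number 2. On leaving out 1 array it was -0.26 without full-length no. 1, -1.01 without full-length no. 2 and -0.35 without empty vector no. 2. Olfm4, the gene of olfactomedin 4, a glycoprotein of specific granules, had 8.90 and 9.97 in full-length arrays, 9.10 and 10.21 in delFG1 arrays, 10.09 and 10.84 in delFG2 arrays, and 10.65 and 11.22 in empty vector arrays. Both full-length arrays lay below both empty vector arrays, and so did both delFG1 arrays, while the delFG2 arrays overlapped the empty vector arrays. Olfm4 fell 2.83-fold with the full-length fusion, a log2 difference of -1.50 (95% interval with the block -1.76 to -1.24, adjusted p = 6.96e-05 with and 0.331 without the block by limma).

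Chil1 encodes a chitinase-like glycoprotein known in humans as YKL-40, and its level was 10.32 and 10.98 in full-length arrays, 10.41 and 11.15 in delFG1 arrays, 11.10 and 11.70 in delFG2 arrays, and 11.35 and 11.70 in empty vector arrays. It fell by 0.87 on the log2 scale with the full-length fusion (adjusted p = 0.000215 with the block, 0.402 without, limma). Chil3, another chitinase-like protein gene, had 9.91 and 11.34 in full-length arrays, 9.41 and 11.09 in delFG1 arrays, 10.14 and 11.82 in delFG2 arrays, and 11.56 and 12.20 in empty vector arrays. In every group the Chil3 array numbered 1 was the lower, and in full-length, delFG1 and delFG2 cells by over 1 log2 unit. Its difference between full-length and empty vector was -1.25 (adjusted p = 0.00336 with the block, 0.637 without, limma). Chil3 has a near-identical copy, Chil4, so its signal cannot be assigned to 1 gene with certainty.

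Ltf, the gene of the iron-binding protein lactoferrin, had 11.67 and 12.38 in full-length arrays, 11.64 and 12.41 in delFG1 arrays, 12.43 and 12.76 in delFG2 arrays, and 12.70 and 12.85 in empty vector arrays. Both full-length arrays and both delFG1 arrays lay below the empty vector arrays, and full-length minus empty vector was -0.75 (adjusted p = 0.00393 with the block, 0.421 without, limma). Camp, which encodes the cathelicidin antimicrobial peptide, had 10.27 and 11.13 in full-length arrays, 10.62 and 11.40 in delFG1 arrays, 11.19 and 11.72 in delFG2 arrays, and 11.03 and 11.53 in empty vector arrays. Its full-length and empty vector arrays overlapped, since full-length no. 2 lay above empty vector no. 1. Within each number, however, the full-length array was the lower, and the difference of -0.58 passed with the block (adjusted p = 0.0032, limma).

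Mmp8, the gene of neutrophil collagenase, had 10.91 and 11.24 in full-length arrays, 10.18 and 11.11 in delFG1 arrays, 11.13 and 11.75 in delFG2 arrays, and 11.43 and 12.46 in empty vector arrays. It fell by 0.87 with the full-length fusion (adjusted p = 0.00301 with the block, 0.524 without, limma), and no full-length array reached an empty vector array. Lcn2, which encodes the siderophore-binding lipocalin 2, had 12.75 and 13.20 in full-length arrays, 12.71 and 13.14 in delFG1 arrays, 13.04 and 13.27 in delFG2 arrays, and 13.19 and 13.38 in empty vector arrays. These groups overlapped by a small margin, and Lcn2 fell by 0.31 in the fit with the block (adjusted p = 0.0129, limma).

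Hp, the gene of the haemoglobin-binding haptoglobin, had 10.35 and 10.88 in full-length arrays, 9.98 and 10.60 in delFG1 arrays, 10.05 and 11.15 in delFG2 arrays, and 10.93 and 11.34 in empty vector arrays. Cd177, whose product is a surface partner of proteinase 3 in humans, had 11.56 and 12.17 in full-length arrays, 11.69 and 12.29 in delFG1 arrays, 12.17 and 12.47 in delFG2 arrays, and 12.22 and 12.51 in empty vector arrays. In both genes the full-length arrays lay below the empty vector arrays, and the differences of -0.52 for Hp and -0.50 for Cd177 passed with the block (adjusted p = 0.0368 and 0.00444, limma). Ngp, a cathelicidin-like granule protein gene, had 12.89 and 13.03 in full-length arrays, 12.91 and 13.02 in delFG1 arrays, 13.03 and 13.05 in delFG2 arrays, and 13.02 and 13.08 in empty vector arrays. Ngp and Pglyrp1, the gene of a bactericidal peptidoglycan recognition protein, did not pass, with differences of -0.09 and -0.04. Their 95% intervals with the block ran over -0.19 to 0.01 for Ngp and -0.15 to 0.08 for Pglyrp1.

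**Figure D2:**
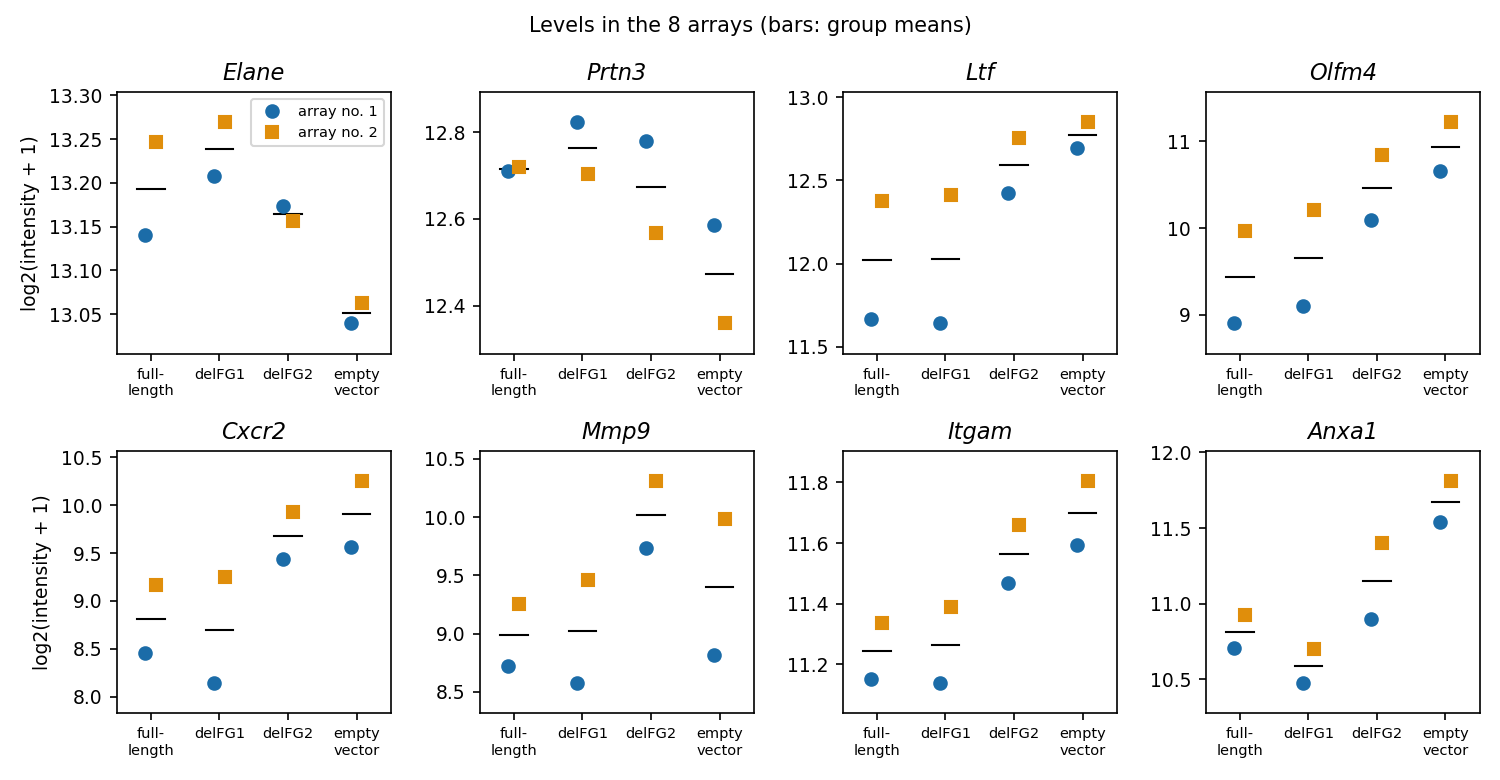
Level of 8 genes in each array, as log2(intensity + 1), in full-length, delFG1, delFG2 and empty vector cells. Circles are arrays numbered 1, squares arrays numbered 2, and bars group means; each panel has its own vertical scale. Olfm4, Ltf, Cxcr2, Itgam and Anxa1 have their lowest group means with the full-length fusion and delFG1, whereas Elane and Prtn3 have theirs with the empty vector.

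Promoters of genes on either side of this contrast are printed to show the letters behind the motif counts that follow. In the fit with the block Olfm4, Chil1 and Cxcr2 fell and Prtn3 rose, and Elane is the neighbour of Prtn3. Each is the run of 250 bases before the RefSeq transcription start in GRCm38.p6, 5′ to 3′ on the gene's strand. Capitals mark matches on either strand of the C/EBP motif TTNNGNAA or the PU.1 motif GAGGAA. C/EBP and PU.1 are transcription factors of granulocyte differentiation.
Olfm4, chr14:80000052-80000301, plus strand: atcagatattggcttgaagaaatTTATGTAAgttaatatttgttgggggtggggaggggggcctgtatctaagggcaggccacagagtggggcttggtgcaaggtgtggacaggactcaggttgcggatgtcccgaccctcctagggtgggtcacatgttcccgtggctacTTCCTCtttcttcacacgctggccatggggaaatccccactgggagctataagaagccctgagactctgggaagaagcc
Chil1, chr1:134181906-134182155, plus strand: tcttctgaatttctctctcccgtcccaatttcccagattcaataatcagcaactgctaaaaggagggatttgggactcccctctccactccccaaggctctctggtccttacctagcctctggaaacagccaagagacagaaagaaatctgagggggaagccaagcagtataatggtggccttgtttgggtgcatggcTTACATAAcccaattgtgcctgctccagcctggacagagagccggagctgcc
Cxcr2, chr1:74153744-74153993, plus strand: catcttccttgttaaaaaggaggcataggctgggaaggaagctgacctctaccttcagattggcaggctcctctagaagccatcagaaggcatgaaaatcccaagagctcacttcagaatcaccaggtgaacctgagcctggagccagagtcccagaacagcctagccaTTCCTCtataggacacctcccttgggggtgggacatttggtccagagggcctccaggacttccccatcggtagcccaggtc
Elane, chr10:79886062-79886311, plus strand: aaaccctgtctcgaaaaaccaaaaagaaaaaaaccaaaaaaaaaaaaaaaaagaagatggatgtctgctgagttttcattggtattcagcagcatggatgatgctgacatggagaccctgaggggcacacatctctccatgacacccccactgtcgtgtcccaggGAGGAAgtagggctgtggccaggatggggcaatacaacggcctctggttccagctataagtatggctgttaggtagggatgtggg
Prtn3, chr10:79879417-79879666, plus strand: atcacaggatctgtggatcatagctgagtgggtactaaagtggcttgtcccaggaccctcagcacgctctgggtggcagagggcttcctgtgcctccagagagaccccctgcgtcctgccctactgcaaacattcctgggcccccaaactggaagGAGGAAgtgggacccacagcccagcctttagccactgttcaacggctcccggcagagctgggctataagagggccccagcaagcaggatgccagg

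Promoters of 26 of the 30 measured genes were found. Members were counted at the first listed start of each gene, but all promoters at every distinct start, so the shares below are of unlike sets. In the window of 300 bases, which adds the 50 bases after the start, TTNNGNAA was found in 8 of 10 secondary granule genes, 2 of 4 late maturation genes and 0 of 4 primary granule genes, and in 40.7% of 32851 promoters of all genes. GAGGAA was found in all 4 primary granule genes, 6 of 10 secondary granule genes and 2 of 4 late maturation genes, against 28.3% of all promoters. Over the members with a promoter, 15 held TTNNGNAA and 16 held GAGGAA. The HOX-PBX motif TGATNNAT was found in 1 of 26, that of Chil3, against 8.85% of all promoters. AGATAA, the GATA motif, stood in 6 of 26 against 11.2%, and TGTGGT, the RUNX motif, in 5 of 26 against 16.8%. Both strands were searched, a base may count towards more than 1 motif, and a match is a description of letters and not of binding. Prtn3 and Elane lie 6645 bases apart on chromosome 10 by their starts, so the primary granule promoters are not 4 independent places in the genome. Among the secondary granule genes, Camp and Ngp lie 570352 bases apart on chromosome 9, and Ngp and Ltf 599484.

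Late maturation genes varied among themselves. Cxcr2, the chemokine receptor that draws mature neutrophils out of the marrow, had 8.46 and 9.17 in full-length arrays, 8.15 and 9.25 in delFG1 arrays, 9.43 and 9.93 in delFG2 arrays, and 9.56 and 10.25 in empty vector arrays. No full-length or delFG1 array reached an empty vector array, and Cxcr2 fell 2.13-fold with the full-length fusion, a log2 difference of -1.09 (adjusted p = 0.000481 with the block, 0.414 without, limma). Padi4, whose enzyme citrullinates histones, had 9.36 and 9.79 in full-length arrays, 9.18 and 9.80 in delFG1 arrays, 9.79 and 10.07 in delFG2 arrays, and 9.76 and 10.18 in empty vector arrays. Its difference of -0.40 passed with the block although the groups overlapped (adjusted p = 0.0229, limma).

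Mmp9, the gene of gelatinase B, had 8.72 and 9.26 in full-length arrays, 8.58 and 9.46 in delFG1 arrays, 9.74 and 10.31 in delFG2 arrays, and 8.81 and 9.98 in empty vector arrays. Retnlg, a resistin-like gene expressed in mature mouse neutrophils, had 6.87 and 6.94 in full-length arrays, 7.14 and 7.84 in delFG1 arrays, 8.46 and 8.22 in delFG2 arrays, and 6.95 and 7.78 in empty vector arrays. Ly6g, the surface antigen used to mark mouse neutrophils, had 11.08 and 11.83 in full-length arrays, 11.06 and 11.99 in delFG1 arrays, 11.94 and 12.09 in delFG2 arrays, and 10.87 and 11.93 in empty vector arrays. The 2 empty vector arrays lay far apart in all 3 of these genes, by 1.17 in Mmp9 and 1.07 in Ly6g. Full-length minus empty vector was -0.41, -0.47 and 0.06 for Mmp9, Retnlg and Ly6g, and none of these passed in either fit. The median of the 5 late genes was -0.41, but -0.88 without empty vector no. 1, -0.049 without empty vector no. 2 and -0.18 without full-length no. 1. Ly6g belongs to a family of similar genes, and its signal may include others of them.

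Of the remaining classes, 7 of 10 genes fell with the block in full-length against empty vector cells, and 0 rose (4.43% and 2.18% of all tested probe sets). Anxa1, the gene of annexin A1, a protein that restrains neutrophil recruitment, had 10.70 and 10.93 in full-length arrays, 10.48 and 10.70 in delFG1 arrays, 10.90 and 11.40 in delFG2 arrays, and 11.54 and 11.81 in empty vector arrays. Both full-length arrays lay below both empty vector arrays by more than the gap within either group, and Anxa1 fell 1.81-fold, a log2 difference of -0.86 (95% interval with the block -1.03 to -0.69, adjusted p = 0.000143 with and 0.152 without the block by limma). Lyz2, the gene of lysozyme, had 12.82 and 12.98 in full-length arrays, 12.76 and 12.96 in delFG1 arrays, 12.97 and 13.14 in delFG2 arrays, and 13.09 and 13.27 in empty vector arrays, and fell by 0.28 (adjusted p = 0.00245 with the block, 0.421 without).

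Itgam and Itgb2 encode the 2 chains of the complement receptor CR3 (CD11b and CD18). Itgam had 11.15 and 11.34 in full-length arrays, 11.14 and 11.39 in delFG1 arrays, 11.47 and 11.66 in delFG2 arrays, and 11.59 and 11.80 in empty vector arrays. Itgb2 had 11.97 and 12.17 in full-length arrays, 11.99 and 12.25 in delFG1 arrays, 12.16 and 12.39 in delFG2 arrays, and 12.36 and 12.52 in empty vector arrays. For both chains every full-length array and every delFG1 array was below every empty vector array, as for 15.6% and 16.1% of all tested probe sets in the 2 comparisons. Full-length minus empty vector was -0.45 for Itgam and -0.37 for Itgb2, with adjusted p of 0.000746 and 0.00148 with the block and 0.281 and 0.377 without (limma).

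The NADPH oxidase makes superoxide from membrane subunits, encoded by Cybb and Cyba, and cytosolic ones, which include the products of Ncf1 and Ncf4. Cybb had 12.41 and 12.55 in full-length arrays, 12.43 and 12.65 in delFG1 arrays, 12.64 and 12.75 in delFG2 arrays, and 12.72 and 12.83 in empty vector arrays. Cyba had 12.56 and 12.73 in full-length arrays, 12.59 and 12.73 in delFG1 arrays, 12.66 and 12.80 in delFG2 arrays, and 12.75 and 12.88 in empty vector arrays. The membrane subunits fell in the fit with the block, by 0.29 and 0.17 for Cybb and Cyba (adjusted p = 0.00423 and 0.0417, limma). The cytosolic subunits differed by -0.10 (Ncf1) and -0.08 (Ncf4) and did not pass. S100a8 and S100a9 encode the 2 chains of the calcium-binding protein calprotectin and lie 26650 bases apart on chromosome 3. S100a9 had 12.44 and 12.64 in full-length arrays, 12.37 and 12.63 in delFG1 arrays, 12.65 and 12.83 in delFG2 arrays, and 12.68 and 12.84 in empty vector arrays. S100a8 had 12.36 and 12.52 in full-length arrays, 12.31 and 12.58 in delFG1 arrays, 12.53 and 12.68 in delFG2 arrays, and 12.46 and 12.70 in empty vector arrays. Only for S100a9 were the full-length and empty vector arrays apart, and it fell by 0.22 in the fit with the block (adjusted p = 0.0159, limma), while S100a8 differed by -0.15 with an adjusted p of 0.123. The difference between the 2 chains was not tested.

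**Figure D3:**
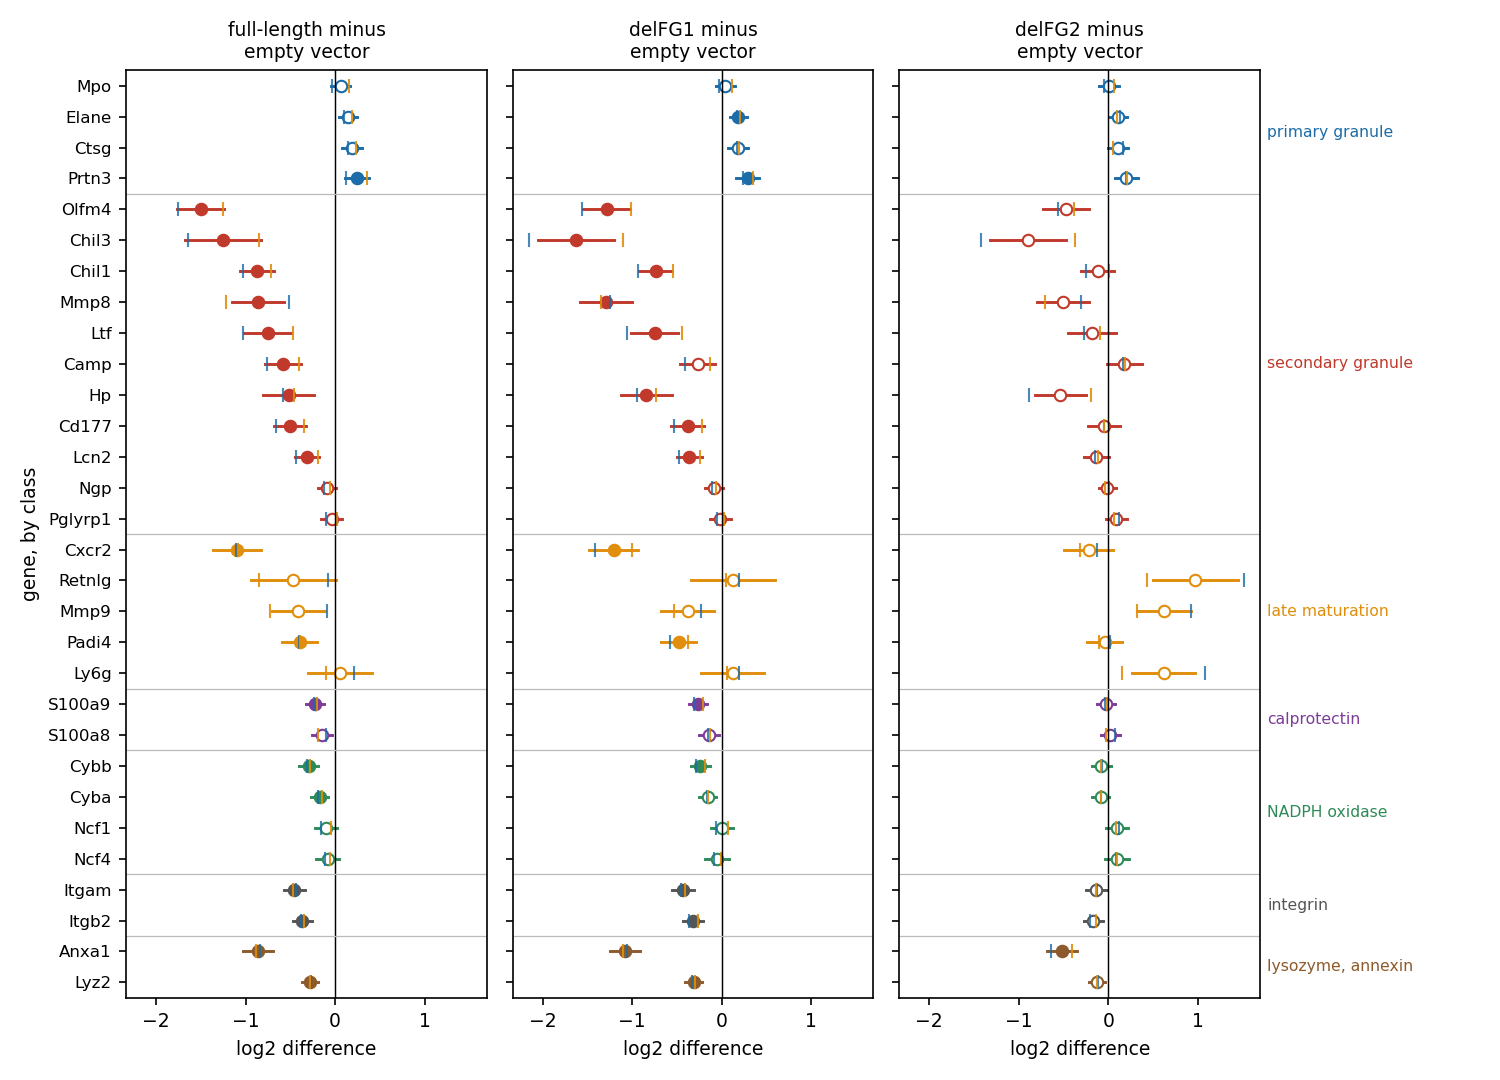
Log2 difference of full-length, delFG1 and delFG2 cells from empty vector cells for the 30 genes, ordered by class. Dots are differences of group means, filled where the adjusted p with the replicate block is under 0.05; bars are 95% intervals with the block, and blue and orange ticks the differences within the arrays numbered 1 and 2. The full-length and delFG1 panels have 19 and 18 filled dots and the delFG2 panel 1, that of Anxa1.

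Cells with delFG1 were also lower than empty vector cells in 8 of 11 secondary granule genes and higher in 2 of 4 primary granule genes in the fit with the block. The delFG1 and full-length comparisons use the same empty vector arrays, so their values are not independent. With the block, 16 genes fell and 2 rose, against 4.18% lower and 1.94% higher among all tested probe sets. Without the block 0 passed (background 0.0413% lower and 0.0872% higher), 16 had an unadjusted p under 0.05 (9.61% of all probe sets), and the smallest adjusted p was 0.0798 for Anxa1. The arrays did not overlap for 15 lower and 3 higher genes (16.1% and 24.6%).

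The class medians of delFG1 minus empty vector were 0.18 for primary granule genes, -0.74 for secondary granule genes and -0.38 for late maturation genes, against 0.02 over all tested probe sets. The secondary median was -0.93 within replicate number 1 and -0.44 within replicate number 2, and it was -0.36 without delFG1 no. 1 and -1.11 without delFG1 no. 2. The late median was 0.20 without empty vector no. 2, 0.057 without delFG1 no. 1, -0.79 without delFG1 no. 2 and -0.68 without empty vector no. 1. Elane rose by 0.19 and Prtn3 by 0.29 with the block (adjusted p = 0.0292 and 0.0142, limma). The genes that rose with the block numbered 0 with no intensity trend and 1 under median centring. They numbered 2 under quantile normalization or a pseudocount of 32, and 3 with dim probe sets left out. Of the secondary granule genes 8 fell, the largest being Chil3 at -1.63, Mmp8 at -1.30 and Olfm4 at -1.28 (adjusted p = 0.000679, 0.000265 and 0.000159). Cxcr2 fell by 1.21 and Anxa1 by 1.08 (adjusted p = 0.000265 and 3.1e-05). Camp, at -0.27, did not pass (adjusted p = 0.124).

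Of the 18 calls with the block, 10 held with each array left out in turn: Ltf, Mmp8, Olfm4, Chil1, Chil3, Hp, Cxcr2, Itgam, Lyz2 and Anxa1. Without delFG1 no. 1 the other 8, Elane, Prtn3, Lcn2, Cd177, Padi4, S100a9, Cybb and Itgb2, did not pass, with adjusted p between 0.0903 and 0.327 by limma. Elane, Prtn3 and Cybb were also lost without delFG1 no. 2 (0.051 to 0.249), Elane without either delFG2 array (0.0536 and 0.0542), and Cd177 without empty vector no. 1 (0.109). Anxa1 was the 1 gene that passed in a fit without the block, with an adjusted p of 0.0429 and 0.0427 without delFG2 no. 1 or no. 2 and of 0.0481 with only the 4 arrays compared.

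Between delFG1 and full-length cells 0 of the 30 genes passed in either limma fit, where the background with the block was 0.0551% lower and 0.0229% higher. Without the block it was 0.00918% lower and 0%, and 0 of the 30 had an unadjusted p under 0.05 (2.07% of all probe sets). The class medians were 0.02, 0.00 and 0.03 for primary, secondary and late genes. On leaving out 1 array the secondary median ran from -0.27 (without full-length no. 1) to 0.39 (without delFG1 no. 1), and the late one from -0.40 (without delFG1 no. 2) to 0.47 (without delFG1 no. 1). The primary median ran from -0.023 (without delFG1 no. 1) to 0.027 (without delFG1 no. 2). Single differences ran from -0.43 for Mmp8 to 0.59 for Retnlg, and their 95% intervals with the block were -0.72 to -0.14 and 0.12 to 1.06. For Olfm4 the difference was 0.22 (-0.04 to 0.48) and for Ltf 0.00 (-0.26 to 0.27). The arrays did not overlap for 1 lower gene, Anxa1, and 1 higher gene, Retnlg (12.4% and 13.3% of all probe sets).

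Cells with delFG2 differed from empty vector cells in 1 gene that passed. With the block 1 gene fell, Anxa1 by 0.52 (adjusted p = 0.0275, limma), and 0 rose, against 0.399% lower and 0.106% higher among all tested probe sets. Without the block 0 passed (0% lower and 0.00459% higher), and 2 had an unadjusted p under 0.05 (4.43% of all probe sets). The class medians were 0.11, -0.13 and 0.62 for primary, secondary and late genes, against 0.01 over all tested probe sets. Retnlg differed by 0.97, Mmp9 by 0.62 and Ly6g by 0.62, and Chil3 by -0.90, and none of these passed (adjusted p with the block 0.0857, 0.0811, 0.138 and 0.0812). The arrays did not overlap for 1 lower and 3 higher genes (13% and 16.3%).

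These values turned on single arrays. Without empty vector no. 1 the late median was 0.038, and without empty vector no. 2 it was 1.15. With the block, the call of Anxa1 was lost without empty vector no. 1, and more genes were called without empty vector no. 2. The share of all tested probe sets called in refits with 1 array left out was not computed. Without delFG2 no. 2 the late median was 0.34. The secondary median was 0.0099 without empty vector no. 2, 0.0011 without delFG2 no. 1, -0.26 without empty vector no. 1 and -0.35 without delFG2 no. 2, so its sign depended on single arrays. The primary median was 0.055 without delFG2 no. 1. The call of Anxa1 was also lost without full-length no. 1 or no. 2 or delFG2 no. 1 (adjusted p 0.0794 to 0.378), the count was 0 with the block but no intensity trend, and 2 to 4 genes were called without either delFG1 array or delFG2 no. 2.

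Set against the full-length fusion, delFG2 cells were higher in 4 of 11 secondary granule genes and 3 of 5 late maturation genes in the fit with the block, while the primary granule genes differed by -0.03 to -0.08. With the block 8 genes rose and 0 fell, where the background was 0.298% higher and 0.17% lower. Without the block 0 passed (0% higher and 0.0275% lower), 6 had an unadjusted p under 0.05 (2.76% of all probe sets), and the smallest adjusted p was 0.763, for Retnlg. The class medians were -0.05 for primary, 0.36 for secondary and 0.87 for late genes, against -0.01 over all tested probe sets. The secondary median was 0.29 within replicate number 1 and 0.38 within replicate number 2, but 0.066 without delFG2 no. 2, 0.15 without full-length no. 1, 0.67 without delFG2 no. 1 and 0.76 without full-length no. 2. The late median was 0.51 without full-length no. 1. The primary median was -0.13 without delFG2 no. 1 and 0.0094 without delFG2 no. 2. The arrays did not overlap for 14 higher and 0 lower genes (11.7% and 14.1%).

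The genes that rose include 3 late ones: Retnlg 2.71-fold (1.44, adjusted p = 0.0148 with the block by limma), Mmp9 2.05-fold (1.03, adjusted p = 0.00776) and Cxcr2 1.83-fold (0.87, adjusted p = 0.0109). Both delFG2 arrays lay above both full-length arrays in these 3 genes, as in the levels given above. The secondary granule genes that rose were Olfm4 (1.03), Camp (0.76), Chil1 (0.75) and Cd177 (0.46), with adjusted p of 0.00426, 0.0049, 0.00425 and 0.0432. Itgam rose by 0.32 (adjusted p = 0.033). Ltf, at 0.57, did not pass (adjusted p = 0.0905), and neither did Hp at -0.02 nor Mmp8 at 0.36.

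None of the 8 calls held with each of the 8 arrays left out in turn. The count fell on leaving out any 1 full-length or delFG2 array and rose on leaving out either empty vector array. The share of all tested probe sets called in these refits was not computed. Among the genes lost, adjusted p by limma was 0.0839 (Mmp9) to 0.637 (Cd177) without full-length no. 1 and 0.114 (Chil1) to 0.441 (Cd177) without delFG2 no. 1. It was 0.0723 (Chil1) to 0.31 (Itgam) without full-length no. 2, and 0.0539 (Camp and Cxcr2) to 0.251 (Itgam) without delFG2 no. 2. Itgam was also lost without either delFG1 array (0.0716 and 0.0742). Retnlg passed in a fit without the block when only the 4 arrays compared were used, with an adjusted p of 0.0422. With the block but no intensity trend the count was 3. The direction of all 8 was the same in both numbers.

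**Figure D4:**
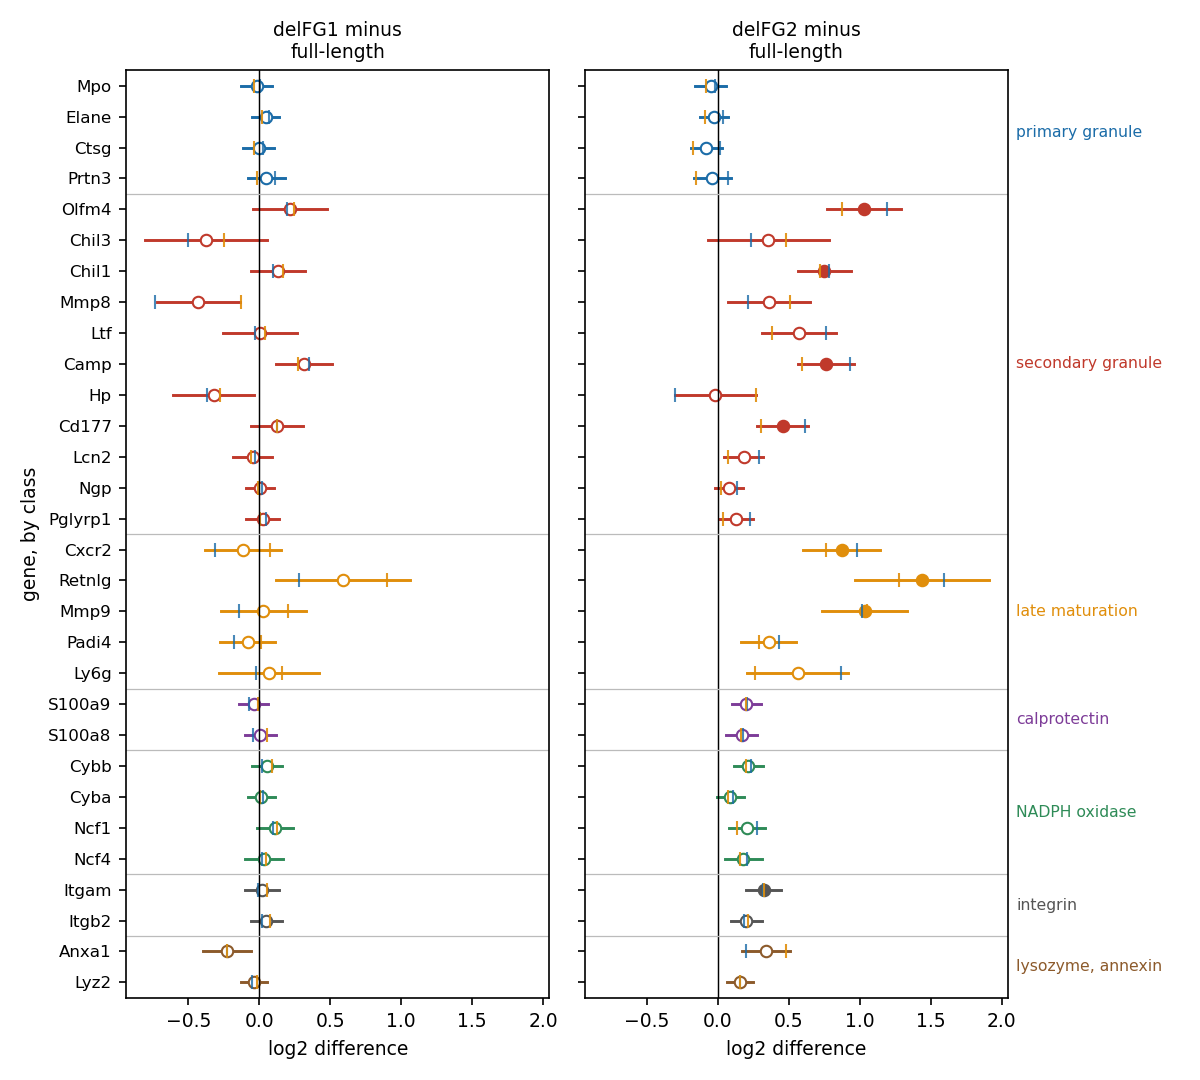
Log2 difference of delFG1 and delFG2 cells from full-length NUP98-HOXA9 cells for the 30 genes, ordered by class. Dots are differences of group means, filled where the adjusted p with the replicate block is under 0.05; bars are 95% intervals with the block, and blue and orange ticks the differences within the arrays numbered 1 and 2. The delFG1 panel has 0 filled dots and the delFG2 panel 8, all above 0.

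Between the mutants, delFG2 minus delFG1, 7 genes were higher with the block and 0 lower (background 0.404% and 0.133%), and 0 passed without it, where no tested probe set did and 5 of the 30 had an unadjusted p under 0.05 (3.13% of all probe sets). The 7 were Mmp9 (1.004), Cxcr2 (0.99), Olfm4 (0.81), Mmp8 (0.79), Chil1 (0.62), Anxa1 (0.56) and Itgam (0.30), with adjusted p between 0.00965 and 0.0444 by limma. Primary granule genes differed by -0.09 (Prtn3) to -0.03 (Mpo). The count fell on leaving out any 1 full-length, delFG1 or delFG2 array and rose on leaving out either empty vector array. The share of all tested probe sets called in these refits was not computed. With the block but no intensity trend the count was 0. Calls lost on leaving out an array had adjusted p between 0.0522 and 0.824 by limma, and Itgam passed only with all 8 arrays or without an empty vector array. The arrays did not overlap for 10 higher and 1 lower gene (11.7% and 15.3%).

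The genes also differed between the arrays numbered 2 and those numbered 1. Arrays numbered 2 were higher than those numbered 1 in all 4 groups for 25 of the 30 genes and lower for 1, against 18.1% and 13.4% of all tested probe sets. In the fit with the block 24 were higher and 1, Mpo, lower (background 6.43% and 4.75%). Chil3 differed by 1.36 (adjusted p = 0.00025, limma), Olfm4 by 0.87 (adjusted p = 0.000183) and Mmp9 by 0.79 (adjusted p = 0.000661). All 11 secondary granule genes were higher in array 2 in every group, with a median of 0.59, and the late genes had a median of 0.72. The primary granule genes had a median of -0.10, with Mpo at -0.13 (adjusted p = 0.0397). The pooled SD between the arrays of a group, of a class's median level, was 0.07 for primary, 0.50 for secondary and 0.44 for late genes. The sources used here do not say what the numbers stand for.

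**Figure D5:**
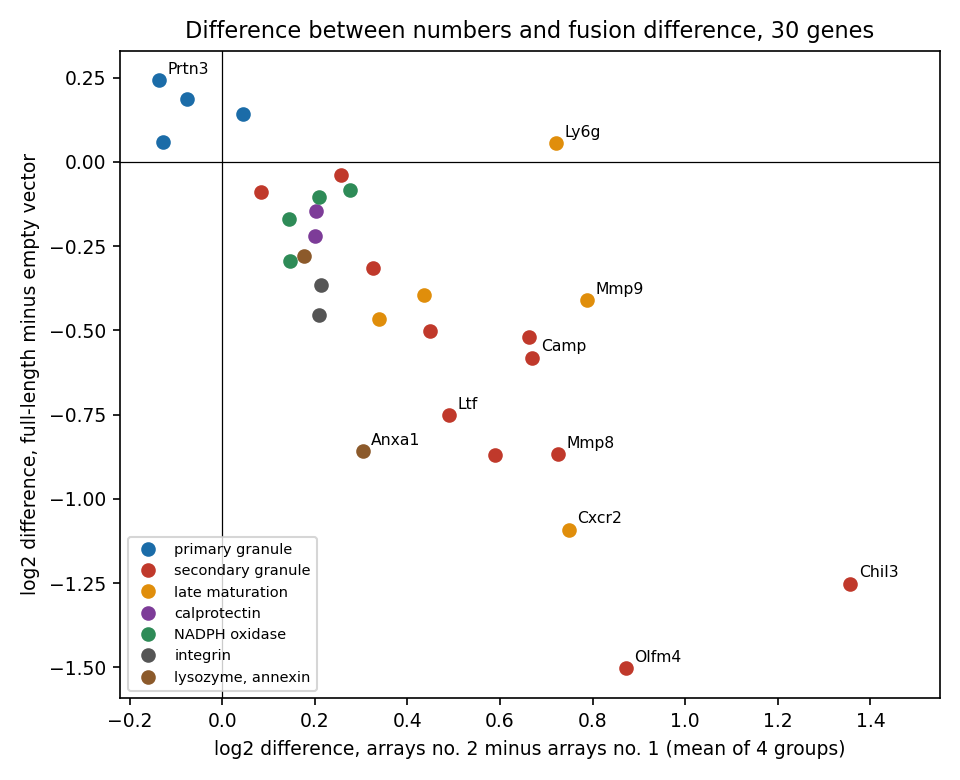
Log2 difference between full-length and empty vector cells (vertical) against the difference between arrays numbered 2 and 1, averaged over the 4 groups (horizontal), for the 30 genes coloured by class. Both differences come from the same arrays. Over the 30 genes Pearson's r was -0.783, with 28 of opposite sign, and over all tested probe sets -0.498. The share of opposite signs over all tested probe sets was not computed. For delFG1 minus empty vector r was -0.764 and -0.434, and for delFG2 minus full-length 0.58 and 0.493. Primary granule genes lie at or above 0 vertically and near 0 horizontally, and Chil3, Olfm4 and Cxcr2 are far from 0 on both axes.

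Other genes of the granulocyte programme came from a list of 30 regulators and partners, of which 28 were measured. In the fit with the block 2 of the 28 rose and 8 fell with the full-length fusion, against 2.18% higher and 4.43% lower among all tested probe sets. Without the block 0 passed (background 0.101% higher and 0.0229% lower). Gfi1, a repressor that acts in granulocyte differentiation, rose by 0.81, and Cst7, the gene of cystatin F, by 0.35 (adjusted p = 0.00312 and 0.0162 with the block, limma). Those that fell include the complement receptor gene C5ar1 by 0.79, the membrane metalloproteinase gene Mmp25 by 0.89, the lectin receptor gene Clec5a by 0.79 and Spi1, which encodes PU.1, by 0.24 (adjusted p = 0.00105, 0.00169, 0.00437 and 0.0258). Ctsc, whose product cathepsin C activates the granule serine proteases, fell by 0.28 (adjusted p = 0.0108). In delFG1 minus empty vector 3 rose and 7 fell with the block (background 1.94% higher and 4.18% lower). In delFG2 minus empty vector 1 rose (background 0.106% higher). In delFG2 minus full-length 2 rose (background 0.298% higher), Ceacam10 by 1.02 and Mmp25 by 0.69 (adjusted p = 0.00641 and 0.0392). Between the numbers 15 were higher in arrays numbered 2 (background 6.43%).

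Markers of other blood cells moved with some of these differences, and their part in the results was not tested. Counts of lower and higher genes in this paragraph are for full-length against empty vector cells with the block. In that fit 4.43% of all tested probe sets were lower and 2.18% higher, and without the block 0.0229% were lower. The summed intensity of 6 eosinophil genes was 4429 to 6909 in full-length, 4002 to 6695 in delFG1, 5256 to 9098 in delFG2 and 5830 to 11160 in empty vector arrays, and with the block 3 of the 6 fell in full-length against empty vector cells. For 10 mast cell and basophil genes the sum was 13870 to 17030 in full-length, 11170 to 14200 in delFG1, 15400 to 18300 in delFG2 and 16250 to 18020 in empty vector arrays, with 4 lower and 1 higher. For 14 monocyte and macrophage genes it was 10140 to 11520 in full-length, 9514 to 11170 in delFG1, 9930 to 12760 in delFG2 and 11700 to 15240 in empty vector arrays, with 5 lower and 2 higher, among them Mrc1 lower and Ly86 higher. For 9 stem and progenitor genes it was 4649 to 5454 in full-length, 4241 to 4743 in delFG1, 4259 to 4509 in delFG2 and 4014 to 4684 in empty vector arrays, with 2 higher, Cd34 and Meis1. Megakaryocyte genes, 6 in number, summed to 1871 to 2148 in full-length, 1749 to 1773 in delFG1, 2474 to 3047 in delFG2 and 2935 to 3028 in empty vector arrays, with 4 lower and 1 higher, and Ppbp passed as lower without the block too (adjusted p = 0.0203, limma).

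The erythroid list (6 genes) summed to 411.9 to 432.9 in full-length, 406 to 449.7 in delFG1, 462.9 to 475.9 in delFG2 and 496.2 to 502.7 in empty vector arrays. The B cell list (7 genes) summed to 830.1 to 933.6 in full-length, 930.3 to 938.5 in delFG1, 842.5 to 855.2 in delFG2 and 748.4 to 806.6 in empty vector arrays. The T and NK cell list (7 genes) summed to 283 to 289.6 in full-length, 271.4 to 274.1 in delFG1, 273.6 to 284 in delFG2 and 282.1 to 285.3 in empty vector arrays. Of these lists 2 erythroid, 1 B cell and 0 T and NK cell genes fell with the block in full-length against empty vector cells (background 4.43%). Between the numbers, 5 of the 9 stem and progenitor genes were lower in arrays numbered 2, while 3 of 6 eosinophil and 6 of 10 mast cell and basophil genes were higher. The background was 4.75% lower and 6.43% higher. No marker has a level of 0 in these values, whose lowest intensity was 18.3 in any array.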

How the data were processed

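Total RNA of 8 samples was measured on Affymetrix arrays after whole-transcript labelling, per the labels' protocols. The deposited file holds linear intensity values for 28853 probe sets, and the sources used here do not state how the authors normalised them. A platform annotation gave 21789 probe sets 1 gene symbol, 1621 several and 5443 none, and only the first were tested. All 30 measured members had an Entrez number in the RefSeq table of GRCm38.p6, with unchanged symbols. Values were analysed as log2(intensity + 1), a scale that understates changes of low signals, with limma 3.58.1 in R 4.3.3 (lmFit, eBayes with an intensity trend, two-sided, all 8 arrays in 1 fit). The fit of group means had 4 residual and 4.62 prior degrees of freedom, and that with the replicate block 3 and 7.78. The numbers in the labels were treated as pairing the samples because same-numbered deviations correlated with r of 0.401 to 0.640 in all 6 pairs of groups. The limma procedure was run on simulated data with noise set below the spread within these groups, which does not test the calls made here.

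The members and lists were chosen with earlier results of these data known. All members could be named, with values per array for those past the threshold and a fixed set of others; up to 8 genes of the list of regulators and partners and up to 2 of each other list were named, by smallest p. Promoters came from RefSeq (Python 3.11.15). Alternatives were another pseudocount, median centring, quantile normalization, no intensity trend, dim probe sets left out, all probe sets of a gene averaged, only the 4 arrays compared, each array left out, and the block.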

Additional observations from a re-analysis of the deposited data

How the results depend on the processing

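Without the replicate block 0 members were called in each of the 6 comparisons, and with it 19 (full-length minus empty vector), 18 (delFG1 minus empty vector), 1 (delFG2 minus empty vector), 0 (delFG1 minus full-length), 8 (delFG2 minus full-length) and 7 (delFG2 minus delFG1), so every call rests on treating the numbers as pairs. Without the block, a fit of only the 4 arrays compared called 1 member in delFG1 minus empty vector and 1 in delFG2 minus full-length, and leaving out either delFG2 array called 1 in delFG1 minus empty vector (0 to 1). With the block, dropping the intensity trend left 14 in full-length minus empty vector and 12 in delFG1 minus empty vector, 0 of them higher. It left 0 in delFG2 minus empty vector, 3 in delFG2 minus full-length and 0 in delFG2 minus delFG1. Leaving out dim probe sets gave 11 in delFG2 minus delFG1. Median centring left 0 higher in full-length minus empty vector and 1 higher in delFG1 minus empty vector, and quantile normalization 0 and 2. These settings were chosen after seeing the data. The share of all tested probe sets called was not computed for them or for the fits with 1 array left out. Leaving out each array in turn with the block gave 9 to 18, 10 to 20, 0 to 10, 0 to 0, 0 to 15 and 0 to 16 members in the order above. Class medians depended on single arrays: on leaving out 1 array, the primary, secondary and late medians ran over 0.14 to 0.20, -1.01 to -0.26 and -0.88 to -0.049 in full-length minus empty vector, 0.16 to 0.20, -1.11 to -0.36 and -0.79 to 0.20 in delFG1 minus empty vector, 0.055 to 0.16, -0.35 to 0.0099 and 0.038 to 1.15 in delFG2 minus empty vector, -0.023 to 0.027, -0.27 to 0.39 and -0.40 to 0.47 in delFG1 minus full-length, and -0.13 to 0.0094, 0.066 to 0.76 and 0.51 to 1.23 in delFG2 minus full-length. The 53 member differences that passed in either fit were followed over 1272 alternatives, and 0 changed sign. Several of these alternatives leave a difference unchanged by design. They include the block, no intensity trend, only the 4 arrays compared, dim probe sets left out and averaged probe sets. The count of sign changes is therefore not a measure of robustness. Of the 795 alternatives without the block 4 passed. The 16 members with a mean log2 level over 12 differed by -0.75 to 0.24 between full-length and empty vector cells and the other 14 by -1.50 to 0.06; whether bright probe sets understate differences was not tested. With 2 arrays per group the fits have few residual degrees of freedom.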

Other observations

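Full-length minus empty vector and delFG2 minus delFG1 share no arrays, and 29 of the 30 genes had opposite signs in them. Across these genes Pearson's r was -0.798, against -0.539 across all tested probe sets. The matching pair, delFG1 minus empty vector and delFG2 minus full-length, shares no arrays either, and 26 of the 30 genes had opposite signs there. In that pair r was -0.322 across the genes and -0.493 across all tested probe sets, so the genes did not exceed the background. The share of opposite signs over all tested probe sets was not computed for either pair. Genes are not independent replicates, all these comparisons span the same array numbers, and the values are given as a description.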
